A study of Homo sapiens with 34 samples.

Results

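PLAT encodes tissue plasminogen activator, and its mRNA rose during the chase of a SLAM-seq experiment in RPE-1 cells, far more in the line with CCND1 knockdown than in the line with CCND1 overexpression. It is described here with 4 other genes of the plasminogen activator system: PLAU, PLAUR, SERPINE2 and SERPINB2. These 5 of 19041 genes were taken by name from the deposited count tables, with the reads of each gene summed over its 3′ UTR intervals in all 34 libraries. They were selected on their measured differences in abundance between lines and over the chase, so those differences are given as descriptions without a test. The label content after the pulse and the half-lives were not used in that choice and were tested over all genes. The half-lives are not independent of it, since the fitted rate also falls when unlabelled mRNA is added over the chase.

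Plasminogen activators are serine proteases that cut the zymogen plasminogen into plasmin, a protease that dissolves fibrin and degrades matrix proteins. Tissue plasminogen activator works mainly on fibrin, while urokinase, the product of PLAU, works at the cell surface, where it binds the receptor encoded by PLAUR. Both activators are blocked by serpins, inhibitors that trap their target protease: SERPINB2 (PAI-2) acts on urokinase, and SERPINE2 (protease nexin-1) acts on thrombin as well as on the activators. Cells of many kinds raise these mRNAs during migration, wound repair and inflammation, and the mRNAs of PLAU, PLAUR and SERPINB2 are known as short-lived.

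The cells were hTERT-RPE1, an immortalised line from human retinal pigment epithelium. The knockdown line carried a doxycycline-inducible shRNA against the CCND1 3′ UTR. The overexpression line carried the same kind of construct together with an inducible CCND1 allele that the shRNA spares, and in the study's account the former cells are large and the latter small. All cells received 0.5 µg/mL doxycycline and, from day 4 of induction, a 24 h pulse of 10 µM 4-thiouridine (s4U), with the medium exchanged every 3 h, or 10 µM uridine in the unlabelled libraries. The chase was in 1 mM uridine for up to 1440 min. Each line had 2 time courses, called courses 1 and 2 after their replicate number, with 17 libraries per line. Unlabelled, 0, 180, 360, 720 and 1440 min libraries were present in all 4 courses, and the remaining times of 10 to 90 min in some. Nothing in the labels ties the courses to separate cultures, so spreads and p-values refer to these courses only and may be technical. No uninduced cells were analysed here, so each line is compared only with the other.

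The libraries held 14712332 to 44480703 reads in 3′ UTRs. Over 9534 genes, 31 libraries correlated with the rest of their line at 0.969 to 0.990 on the log2 scale, while 3 stood apart: the unlabelled libraries of both first courses, at 0.898 (knockdown) and 0.924 (overexpression), and the overexpression library of course 1 at 720 min, at 0.881. CCND1 itself ranged from 81.0 to 199.9 CPM among the knockdown libraries and from 41.8 to 82.3 CPM among those of overexpression. These reads check neither label, since the shRNA acts on this 3′ UTR in both lines and the added allele need not carry it. Of the pigment epithelium markers, RPE65, BEST1, RLBP1, TTR and TYR had medians of 0 CPM and PMEL and OTX2 of 0.133 and 1.95 CPM, whereas MITF was at 34.3 CPM or more and the mesenchymal VIM at 5462 CPM or more in every library. The epithelial keratins KRT8 and KRT18 were present, at 69.3 to 749 CPM and 215 to 726 CPM. The epithelial CDH1 and EPCAM, the endothelial PECAM1, CDH5 and VWF and the leukocyte PTPRC and LYZ stayed at 1.27 CPM or less, while CD68 had a median of 24.6 CPM.

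PLAU had 1 interval of 932 nt (chr10:73916566-73917497, plus strand), over which the annotation also places C10orf55 on the opposite strand. How strand entered the counting is unknown here. The main PLAUR interval of 314 nt (chr19:43648576-43648889, minus strand) held 94.5% of that gene's reads. SERPINE2 had an interval of 755 nt (chr2:223975112-223975866, minus strand) and SERPINB2 one of 585 nt (chr18:63903306-63903890, plus strand). The latter overlaps a second annotated gene on the same strand, ENSG00000289724. At most 1.34% of the reads in any of these intervals, or in that of PLAT, mapped to several places.

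The pentamer ATTTA is the core of AU-rich elements, which are found in many short-lived mRNAs. On the transcript strand the main intervals held 2 copies in PLAT, 2 in PLAU, 1 in PLAUR, 2 in SERPINE2 and 4 in SERPINB2, and none held a tandem pair that shares an A. At least 1 copy was present in 28.0% of the 70500 single-gene intervals. Among intervals within 20% of the same length, 36.4% held at least 2 copies beside PLAT, 45.1% beside PLAU and 35.9% beside SERPINE2, 29.2% held at least 1 beside PLAUR, and 5.96% held at least 4 beside SERPINB2. The copy number of SERPINB2 was thus uncommon for its length, and those of the other genes were common. The sites below are shown because the label of these mRNAs is followed over the chase further on. They include 1 of the 4 SERPINB2 sites, 1 of the 2 SERPINE2 sites and no PLAT site. They are windows of 30 bases of the hg38 genome, read 5′ to 3′ on the transcript strand with T for U and with the pentamer in capitals.
PLAU, chr10:73917408-73917437 (plus): tgtacactgaatATTTAtatttcactattt
PLAU, chr10:73917428-73917457 (plus): ttcactatttttATTTAtatttttgtaatt
PLAUR, chr19:43648600-43648629 (minus): aatattcatattATTTAttttatacttaca
SERPINB2, chr18:63903572-63903601 (plus): ttttactttgttATTTAttattttatataa
SERPINE2, chr2:223975272-223975301 (minus): cactaaaataaaATTTAaaaaactcctgtc

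PLAT mRNA rose 14.5-fold and 24.7-fold over the chase in the knockdown courses. Levels are in CPM, read counts scaled to the library's 3′ UTR reads and TMM factors, and are compared within a gene only. In knockdown course 1 it was at 25.2, 26.3, 56.8, 224, 391 and 366 CPM at 0, 45, 180, 360, 720 and 1440 min. In knockdown course 2 it was at 27.5 CPM at 0 min, at 15.9, 24.0, 29.3 and 33.7 CPM at 10, 20, 45 and 90 min, at 60.3 and 256 CPM at 180 and 360 min, and at 547 and 679 CPM at 720 and 1440 min. The level thus stayed between 15.9 and 33.7 CPM up to 90 min, was 2.25-fold and 2.19-fold of its start at 180 min and, as a ratio, rose most between 180 and 360 min in both courses.

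The overexpression courses held less PLAT at every shared time. Course 1 had 5.21, 12.9, 9.66, 11.1, 12.1, 8.08 and 32.7 CPM at 0, 20, 90, 180, 360, 720 and 1440 min, where the 720 min library is one of those that stood apart. Course 2 had 10.9, 8.34, 10.4, 10.5, 9.45, 22.6, 27.0 and 23.1 CPM at 0, 10, 20, 45, 180, 360, 720 and 1440 min. PLAT was thus 6.27-fold and 2.12-fold above its start at 1440 min, and its highest overexpression value of 32.7 CPM lay within the range of the early knockdown libraries and below that of all later ones. Nearly all PLAT reads, 90137 of 90152, lay in 1 interval of 760 nt (hg38, chr8:42175233-42175992, minus strand), all of it annotated as UTR in GENCODE release 44. The other PLAT intervals fall within annotated coding sequence.

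**Figure D1:**
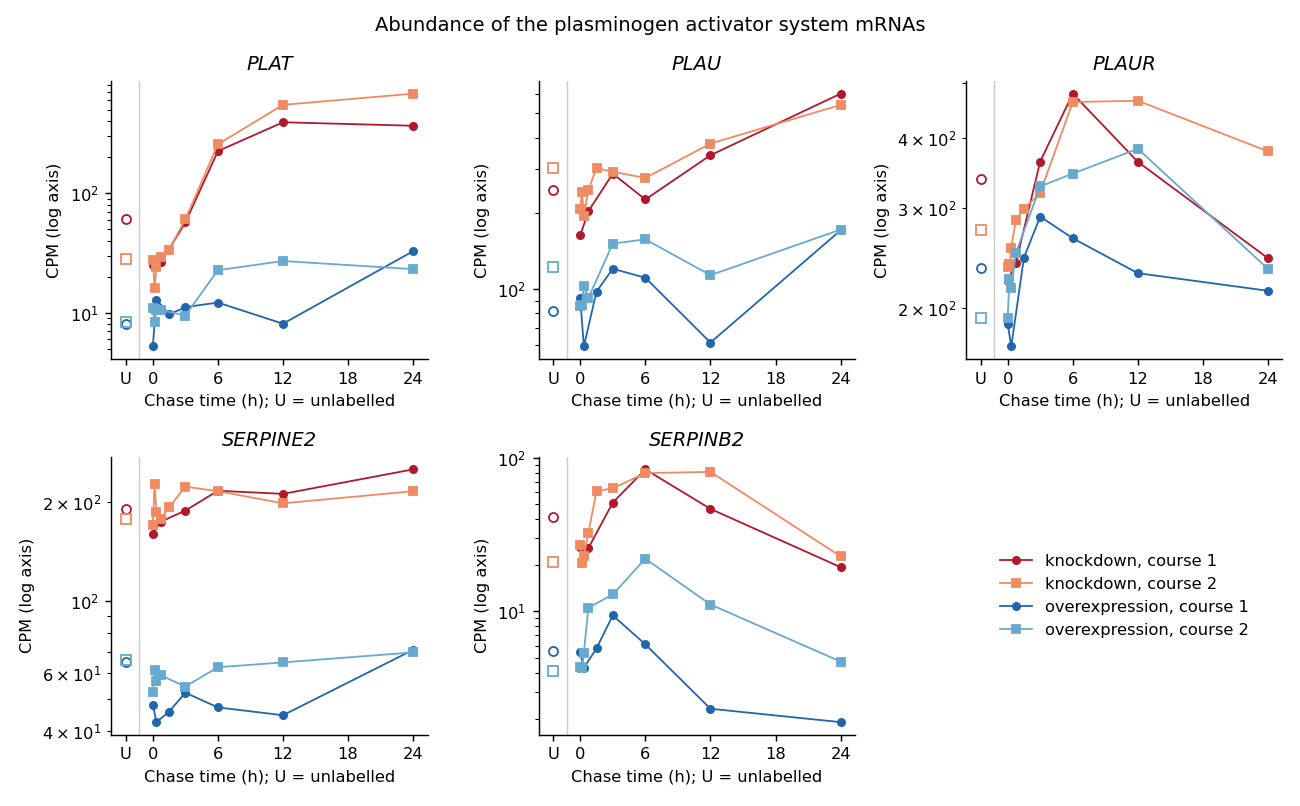
Abundance in CPM (log axis) against chase time in h for the 5 mRNAs, with a line per time course, knockdown in red and orange and overexpression in dark and light blue, and open symbols for the unlabelled libraries (U). PLAT climbs to 366 and 679 CPM in the knockdown courses, while SERPINB2 and PLAUR rise and fall back.

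In the fit of 1440 against 0 min over both lines, the log2 change of PLAT was 3.13 (SE 0.35), at rank 23 of 11927 genes ordered by this value. By line, the mean log2 change was 4.24 ± 0.54 with knockdown and 1.87 ± 1.10 with overexpression (SD, n = 2). The fitted difference between lines was 2.51 (SE 0.36), and 1.65 to 3.22 when a course was left out, the lowest without overexpression course 2. Since PLAT was chosen by this rise, the values describe it only. Of all genes tested, edgeR called 4.63% as changed over the chase at an adjusted p under 0.05, 2.36% as higher at 1440 min, and 0.0163% were called as rising more in the knockdown line. In bulk samples, more cells with PLAT mRNA and more PLAT mRNA per cell cannot be told apart, and CPM is a share of the 3′ UTR reads, not an amount per cell.

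The unlabelled libraries, which received uridine in place of s4U, held 60.3 and 28.0 CPM of PLAT in knockdown courses 1 and 2. They held 8.09 and 8.38 CPM in the overexpression courses. The log2 ratio of the 0 min to the unlabelled library was -1.26 in knockdown course 1, where the unlabelled library stood apart, and -0.02 in knockdown course 2. It was -0.64 and 0.38 in the overexpression courses, so that the direction differed among courses.

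The difference in PLAT between lines was larger late in the chase. At 0 min the means were 26.4 ± 1.61 CPM with knockdown and 8.05 ± 4.01 CPM with overexpression (SD, n = 2), a 3.50-fold difference between the means of the log2 values, which are used for all folds between lines here. It was 5.71-fold at 180 min, 14.5-fold at 360 min, 31.3-fold at 720 min and 18.1-fold at 1440 min, with 522 ± 221 against 27.9 ± 6.76 CPM at the last time. The value at 720 min includes the library that stood apart. Without the 720 min libraries the log2 difference was 3.51. Summed over the shared libraries, the log2 difference was 3.77 (SE 0.18). It was 1.71 (SE 0.32) in the 0 min libraries alone and 4.23 (SE 0.28) in the 1440 min libraries alone, alternatives added after the data were seen.

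**Figure D2:**
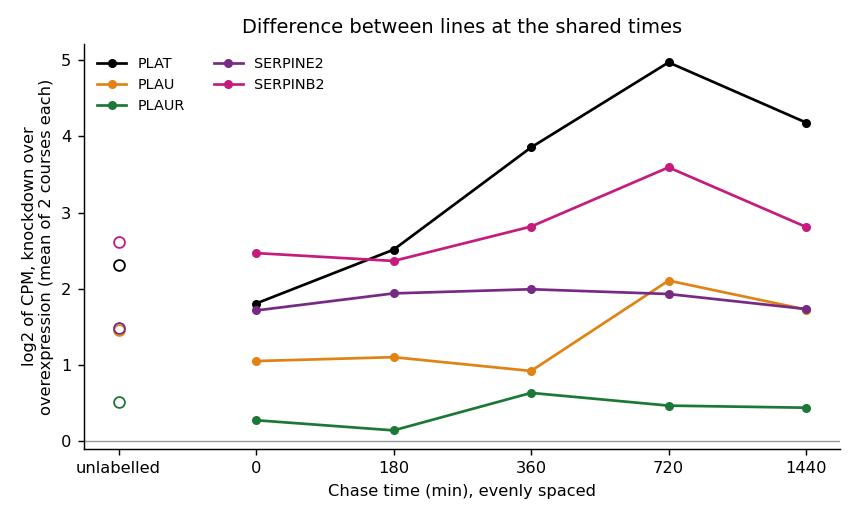
Difference between the mean log2 CPM of the knockdown and of the overexpression courses at the shared times, with a line per gene and open symbols for the unlabelled libraries. PLAT widens from a 3.50-fold difference at 0 min to 31.3-fold at 720 min, while SERPINE2 stays between 3.28-fold and 3.98-fold in the labelled libraries.

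PLAU, which encodes urokinase, rose in all 4 courses and by less than PLAT in each. In knockdown course 1 it was at 164, 204, 288, 227, 341 and 599.5 CPM at 0, 45, 180, 360, 720 and 1440 min. In knockdown course 2 it was at 208 CPM at 0 min, 195 to 303 CPM up to 180 min, then 277, 379 and 541 CPM at 360, 720 and 1440 min. In the overexpression courses it went from 92.2 and 85.7 CPM at 0 min to 171 and 173 CPM at 1440 min. The highest value of every course was thus the last one.

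With knockdown the rise of PLAU from 0 min was 3.67-fold and 2.60-fold, and with overexpression 1.86-fold and 2.01-fold. The unlabelled libraries of courses 1 and 2 held 248 and 303 CPM with knockdown and 81.8 and 122 CPM with overexpression. In 3 of 4 courses the 0 min level was below the unlabelled one, so the rise over the unlabelled level was smaller there. The fitted log2 change was 1.28 (SE 0.13), and its difference between lines 0.67 (SE 0.22). It was 0.43 without knockdown course 1 and 0.94 without knockdown course 2. Between lines PLAU was 2.07-fold higher in the knockdown courses at 0 min and 3.31-fold higher at 1440 min.

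PLAUR, the receptor of urokinase, rose and fell. In knockdown course 1 it was at 223, 240, 363, 478, 362 and 245 CPM at 0, 45, 180, 360, 720 and 1440 min. In knockdown course 2 it went from 236 CPM at 0 min to 320, 462, 465 and 378 CPM at 180, 360, 720 and 1440 min. Overexpression course 1 went from 187 CPM to a highest value of 289.9 CPM at 180 min and back to 214 CPM, and course 2 from 192 CPM to 382 CPM at 720 min and back to 234 CPM. Each course thus peaked at 1.55-fold to 2.14-fold of its start, at a time between 180 and 720 min. The unlabelled libraries of courses 1 and 2 held 338 and 274 CPM of PLAUR with knockdown and 236 and 192 CPM with overexpression.

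The lines differed little in PLAUR. The difference was 1.21-fold at 0 min and 1.36-fold at 1440 min, and at 180 and 720 min the courses of the lines overlapped. The log2 difference over the shared libraries was 0.36 (SE 0.13).

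SERPINB2, the inhibitor PAI-2, also rose and fell. In knockdown course 1 it was at 26.4, 25.8, 51.1, 84.0, 46.5 and 19.4 CPM at 0, 45, 180, 360, 720 and 1440 min. In knockdown course 2 it was at 27.3 CPM at 0 min, 60.7 CPM at 90 min, then 63.3, 79.5, 80.9 and 22.8 CPM at 180, 360, 720 and 1440 min. The peak was 3.18-fold and 2.97-fold of the start, and both courses ended below it, at 0.735 and 0.837 of the 0 min level.

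In the overexpression courses SERPINB2 rested on 49 to 631 reads per library. Course 1 had 5.42 CPM at 0 min, 9.43 CPM at 180 min and 1.90 CPM at 1440 min, and course 2 had 4.33 CPM at 0 min, 22.0 CPM at 360 min and 4.72 CPM at 1440 min, where the last value of course 1 stood on 64 reads. The knockdown line was 5.53-fold higher at 0 min and 7.02-fold higher at 1440 min, and the log2 difference over the shared libraries was 2.55 (SE 0.26).

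SERPINE2, protease nexin-1, differed between lines and rose less over the chase than PLAT or PLAU. It was at 160.3 to 252 CPM, with a median of 193 CPM, in the 17 knockdown libraries and at 42.6 to 70.8 CPM, with a median of 56.8 CPM, in the 17 overexpression libraries. No overexpression library reached the lowest knockdown value, the only one of the 5 genes without overlap over all times. At 1440 min it was 1.57-fold and 1.27-fold of its start with knockdown and 1.47-fold and 1.32-fold with overexpression, a fitted log2 change of 0.48 (SE 0.11) whose difference between lines was 0.03 (SE 0.23). The log2 difference between lines was 1.78 (SE 0.13).

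Across the 6 shared times, both knockdown libraries lay above both overexpression libraries at 6 of 6 times for PLAT, PLAU, SERPINE2 and SERPINB2, and at 4 of 6 times for PLAUR. The members were chosen with this contrast known, in which edgeR called 11.2% of 13165 genes as higher in the knockdown line and 4.03% had this order at 6 of 6 times.

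The pulse itself was examined by the 0 min libraries against the unlabelled ones. The chase change by which the genes were chosen starts from the same 0 min libraries, so these values are descriptions too. The log2 changes were -0.38 (SE 0.34) for PLAT, -0.36 (SE 0.20) for PLAU, -0.27 (SE 0.17) for PLAUR, -0.25 (SE 0.17) for SERPINE2 and -0.08 (SE 0.29) for SERPINB2. Of 11826 genes edgeR called 0.0%, 402 had an unadjusted p under 0.05, and DESeq2 called 2. PLAUR and SERPINE2 were lower with s4U in 4 of 4 courses, as were 7.88% of all genes, PLAT and PLAU in 3 of 4 and SERPINB2 in 2 of 4. Since the unlabelled libraries of both first courses stood apart, the fit was repeated with course 2 of each line, where PLAU was at -0.52 (SE 0.12) and PLAT at 0.18 (SE 0.26).

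The T>C rate, the share of covered T bases read as C, measures the label content of an mRNA. It is not the share made during the pulse, since it also depends on how much s4U entered each mRNA. For PLAT at 0 min it was 1.61% and 1.19% in knockdown courses 1 and 2, on 391 and 425 conversions. With overexpression it was 0.374% and 0.862%, on 20 and 87 conversions. After subtraction of the unlabelled rate, knockdown courses 1 and 2 lay at the 99.3rd and 88.9th percentiles of 8265 genes and overexpression courses 1 and 2 at the 8.08th and 44.0th. The log2 difference between lines was 1.26 (SE 0.49, 95% interval of 0.29 to 2.23), with both knockdown courses above both overexpression courses, and it did not pass over all genes (limma adjusted p of 0.818). No gene passed in this comparison, a share of 0.0%, and 494 had an unadjusted p under 0.05. Without overexpression course 2 the PLAT difference was 1.84 and without overexpression course 1 it was 0.68.

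The other genes were closer between lines at 0 min. The corrected rates of PLAU were 0.918% and 1.19% with knockdown against 0.858% and 0.892%, a log2 difference of 0.25 (SE 0.25). PLAUR stood at 1.30% and 1.03% against 1.12% and 1.04%, a difference of 0.10 (SE 0.24). SERPINE2 was lower, at 0.730% and 0.530% against 0.839% and 0.804%, a difference of -0.40 (SE 0.26). All had limma adjusted p-values of 0.830 to 0.952. SERPINB2 was not tested, since overexpression course 2 had 0 conversions on 3697 covered T bases at 0 min, which allows a rate of up to 0.0811%, beside 52 on 5097 (1.02%) at 10 min. Reads carry no molecular identifiers, so these limits and the intervals from counts cover counting error only.

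In the knockdown courses the label rate of PLAT fell early in the chase, while the amount of labelled PLAT was above its start again at 360 min. The rate at 180 min was 23.9% and 31.2% of its 0 min value and at 360 min 13.98% and 12.5%, against 83.3% and 82.8% at 180 min and 57.6% and 59.8% at 360 min over all 3′ UTR reads of the same libraries. The labelled amount, taken as corrected conversions scaled to the library's 3′ UTR reads, was 56.4% and 70.0% of its start at 180 min and 127% and 123% at 360 min. In knockdown course 1 it was 118% at 720 min and 28.9% at 1440 min. Neighbouring times of course 2 differed widely, at 9.997% at 10 min, 51.2% at 20 min and 84.8% at 90 min. In knockdown course 2 the rate at 720 min, 0.0520%, was below that of its unlabelled library, 0.0713% on 22 conversions, and both the corrected rate and the amount were 0. Without subtraction of that background, an alternative added after the data were seen, the amount at 360 min was 174% in course 2 and 128% in course 1.

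**Figure D3:**
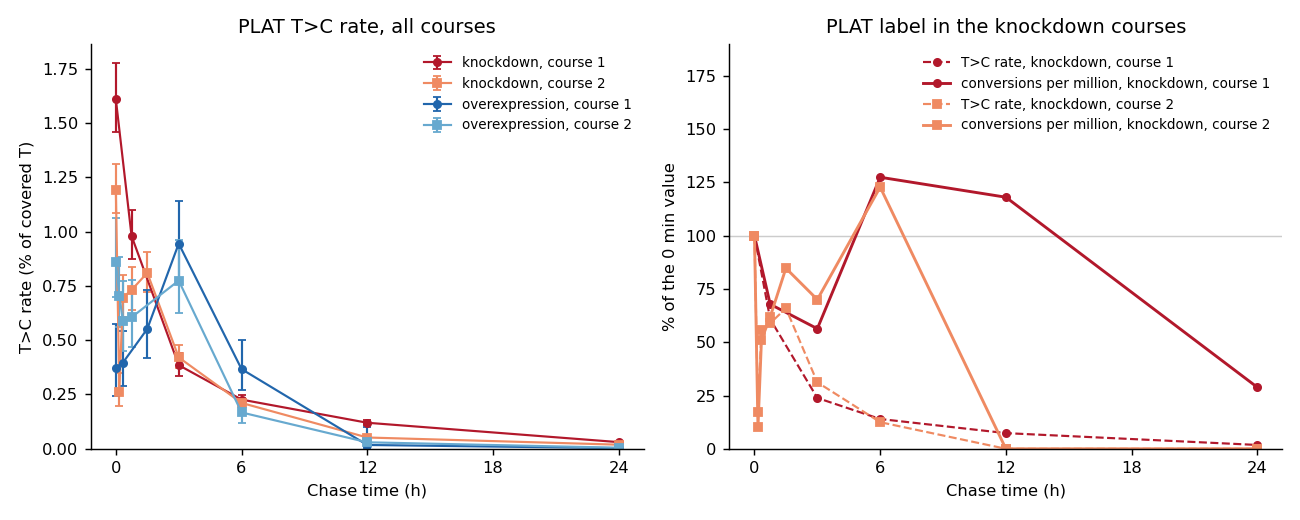
Left, T>C rate of PLAT in percent of covered T bases against chase time in h for the 4 courses, with 95% Wilson intervals that cover counting error only. Right, the corrected rate (dashed) and the conversions scaled to 3′ UTR reads (solid) in the knockdown courses as percent of 0 min: at 6 h the rate is at 13.98% and 12.5% and the conversions are at 127% and 123%.

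In the overexpression courses PLAT rested on few conversions. The rate of course 1 was 0.374% at 0 min, 0.945% on 108 conversions at 180 min and 0.367% on 39 at 360 min, so that it was higher at 180 min than at the start. In course 2 it was 0.862%, 0.775% and 0.167% at the same times. Whether the lines differ in the loss of PLAT label was not tested, since a fit with an R2 of at least 0.6 was had in 2 of the 4 courses only.

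Half-lives were fitted as single exponentials to the corrected rate, and they include dilution by growth. For PLAT they were 1.38 h in knockdown course 1 and 3.52 h in overexpression course 2. The fits of knockdown course 2 (1.29 h, R2 of 0.25) and overexpression course 1 (14.9 h, R2 of 0.22) fell below the minimum. A rate falls when unlabelled mRNA is added as well as when labelled mRNA is lost, and PLAT gained reads over the chase, so these values are no measure of its decay at a steady level. Fits to the scaled conversions gave 33.0 and 7.48 h in the knockdown courses, with R2 of 0.12 and -0.04, and were not kept.

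PLAU had half-lives of 4.65 and 3.45 h with knockdown against 4.11 and 5.08 h with overexpression, a log2 difference of -0.19 (SE 0.32, 95% interval of -0.82 to 0.44). PLAUR had 2.59 and 3.74 h against 3.42 and 4.26 h, a difference of -0.29 (SE 0.33, interval of -0.95 to 0.36). Neither passed, with limma adjusted p-values of 0.872 and 0.807. Course medians over all kept genes were 4.11 to 5.03 h, so that PLAUR was below them in 3 of 4 courses and PLAU in 2 of 4. PLAUR also gained reads during the chase, and fits to the scaled conversions gave 4.73, 5.82, 5.40 and 7.53 h, in the order of the courses above, beside medians of 4.15, 5.23, 4.68 and 4.20 h, so that it was then above the median in 4 of 4 courses. The log2 difference of PLAUR between lines was -0.28 (SE 0.37, limma adjusted p of 0.857) by these fits. For PLAU they gave 5.17 h in knockdown course 2 and were not kept in the other courses. SERPINB2 had 2.80 and 4.37 h in the knockdown courses, and the overexpression courses gave no fit that passed. It too gained reads up to its peak, and fits to the scaled conversions gave 6.13 h in knockdown course 1 and 15.1 h (R2 of 0.34, not kept) in knockdown course 2.

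SERPINE2 mRNA kept its label longest among the fits of these genes that were kept. Its half-lives were 15.6 and 18.8 h with knockdown against 6.28 and 9.85 h with overexpression, at the 97.0th, 98.1st, 73.1st and 93.5th percentiles of the genes kept in each course. The log2 difference between lines was 1.12 (SE 0.35, 95% interval of 0.44 to 1.80), beside a median of 0.20 over all 3317 genes tested. Both knockdown courses were longer than both overexpression courses, and the difference did not pass over all genes (limma adjusted p of 0.644). No gene passed, a share of 0.0%, and 256 had an unadjusted p under 0.05. Without the 720 min libraries, one of which stood apart, the half-lives were 14.1 and 16.9 h against 8.32 and 11.7 h and the difference was 0.65. At 1440 min the knockdown courses kept 22.3% and 21.7% of the SERPINE2 rate, beside 9.95% and 8.70% over all reads. The overexpression courses kept 8.65% and 3.08%, beside 5.69% and 4.17%.

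**Figure D4:**
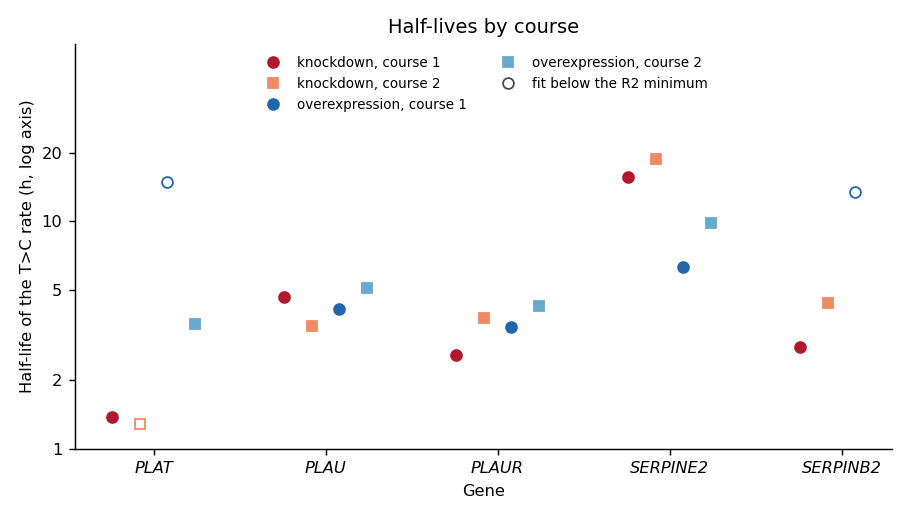
Half-life of the T>C rate in h (log axis) for the 5 genes, with a symbol per course and open symbols where R2 was below 0.6. SERPINE2 lies at 15.6 and 18.8 h (knockdown) and at 6.28 and 9.85 h (overexpression).

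PLG, the gene of plasminogen itself, had 14 reads in all libraries. The other genes of the system were taken from 5 lists. These lists were chosen with earlier results of these data known, so their counts and adjusted p-values describe these genes only. Of 49 genes tested between lines 20 were called higher and 2 lower in the knockdown line, where 11.2% and 10.7% of all genes were called. Among plasminogen binding and fibrinolysis genes 2 of 8 tested were called higher by edgeR. These were ANXA2, a plasminogen-binding annexin, at 0.55 (SE 0.12, adjusted p of 0.00979) and PROCR, the endothelial protein C receptor, at 0.61 (SE 0.14, adjusted p of 0.0113). The list median was 0.58 beside -0.01 over all genes. It is raised by THBD (2.96), SERPINF2 (3.46) and FGG (0.75), none of them called. Their medians were 0.274, 0.0287 and 0.0287 CPM with knockdown and 0 CPM with overexpression. PLGRKT (-0.45), ENO1 (-0.36) and S100A10 (0.22) were not called either. With intervals of over 10% multimapped reads left out ANXA2 was at 1.49 (adjusted p of 0.0597), and without overexpression course 2 the adjusted p of PROCR was 0.0683. ANXA2 was not called in the 0 min libraries alone (adjusted p of 0.0973), nor PROCR in the 1440 min libraries alone (adjusted p of 0.201).

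Of 9 other serpins tested 2 were higher and none lower, beside 11.2% and 10.7% of all genes, with a list median of 0.07. SERPINI1, the neuroserpin that inhibits tissue plasminogen activator, had medians of 1.52 CPM with knockdown and 0.211 CPM with overexpression (log2 of 2.82, SE 0.59, adjusted p of 0.00747), with 0 to 0.991 CPM in the libraries of the latter. SERPINB7 was at 12.7 and 5.996 CPM (log2 of 0.86, SE 0.20, adjusted p of 0.0119), with an adjusted p of 0.0521 without overexpression course 1. Neither was called in the 0 min or the 1440 min libraries alone.

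Of 14 clearance receptors and partners of the urokinase receptor, 7 were called higher and 2 lower, with a median of 0.46. Over all genes 11.2% and 10.7% were called. LRP1, the endocytic receptor that clears complexes of activator and inhibitor, had medians of 342 CPM with knockdown and 136 CPM with overexpression, a log2 of 1.34 (SE 0.12, adjusted p of 8.4e-05). The integrin subunits ITGA5 (0.85, SE 0.14, adjusted p of 0.00175) and ITGA3 (0.85, SE 0.13, adjusted p of 0.00151) were higher as well. FPR1, a formyl peptide receptor, was among those called, but it was at 0 to 0.491 CPM with overexpression and at a median of 0.484 CPM with knockdown. It could thus pass the filter on low counts through the knockdown line only, and no fold is given. FPR1 is counted in the 7 and in the 20 of 49 over all lists, although a gene that passes in this way is likely to come out higher. It was not called without knockdown course 1 (adjusted p of 0.311). The genes called lower, named after their values were seen, were VLDLR (-0.82, adjusted p of 0.0164) and the growth factor receptor EGFR (-0.57, adjusted p of 0.0108).

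Of 10 plasmin or activator substrates tested 4 were higher and none lower, beside 11.2% and 10.7% of all genes, with a median of 0.90. Fibronectin (FN1) had medians of 4972 CPM with knockdown and 1515 CPM with overexpression, a log2 of 1.61 (SE 0.12, adjusted p of 5.7e-05). LTBP1, which anchors latent TGF-beta in the matrix, had medians of 10.96 and 4.28 CPM (log2 of 1.71, SE 0.25, adjusted p of 0.00109). The laminin chain LAMC1 (1.06, SE 0.14, adjusted p of 6.2e-04) and the growth factor PDGFC (0.75, SE 0.16, adjusted p of 0.00866) were the other ones. Of 8 cell surface coagulation genes 5 were higher and none lower, with a median of 0.83. They included F3, tissue factor, at 1.26 (SE 0.15, adjusted p of 3.7e-04), the thrombin receptors F2RL2 at 1.39 (SE 0.18, adjusted p of 6.2e-04) and F2R at 0.64 (SE 0.13, adjusted p of 0.00692), and PROS1, protein S, at 1.01 (SE 0.17, adjusted p of 0.00229). F2R was not called in the 1440 min libraries alone (0.26, adjusted p of 0.522) and PROS1 not in the 0 min libraries alone (0.89, adjusted p of 0.0986).

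**Figure D5:**
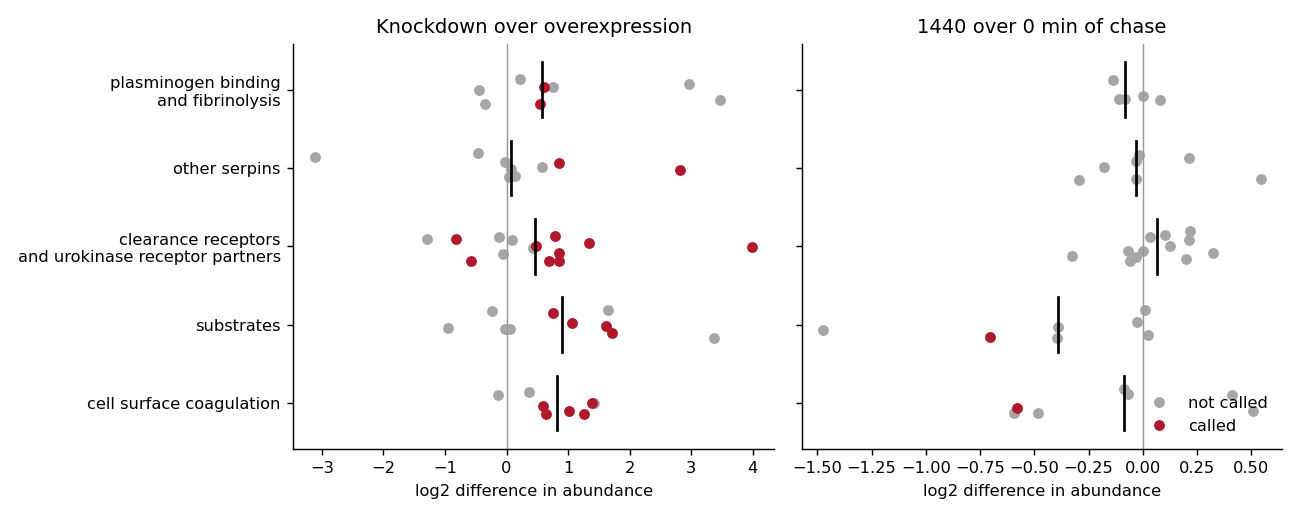
Log2 difference in abundance of each tested gene of the 5 lists between lines (left) and between 1440 and 0 min (right), with a point per gene, red where called, and a bar at each list's median. Between lines 20 of 49 genes are called higher and 2 lower, beside 11.2% and 10.7% of all genes. Over the chase 0 of 38 are called higher and 2 lower, beside 2.36% and 2.27%. The 20 include FPR1, which could pass the filter on low counts through the knockdown line only.

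Over the chase these genes were called at near the share of all genes, which was 4.63% in either direction. Of 38 tested, edgeR called 0 higher and 2 lower at 1440 min, beside 2.36% and 2.27% of all genes. With a rise, 2 had an unadjusted p under 0.05, and DESeq2 called 1. BDNF, whose precursor plasmin can cleave, fell by 0.70 (SE 0.16, adjusted p of 0.00875), and F3 fell by 0.58 (SE 0.12, adjusted p of 0.00382). Without knockdown course 1 the adjusted p was 0.127 for BDNF and 0.0644 for F3, and without overexpression course 1 it was 0.0851 for F3. None of the 43 tested list genes was called in the difference of the chase change between lines, where 0.0163% of all genes were called. None was called in the label effect (40 genes tested), in the label at 0 min (28) or in the half-life (16). There 0.0% of all genes were called, so these counts say nothing particular to the list genes.

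The mRNAs most like PLAT over the 34 libraries, by Pearson's r of log2(CPM + 1) among 8397 genes of at least 10 CPM, were TMEM158 (0.92), STC1 (0.91), TSPAN14 (0.90), PLOD2 (0.89) and IL1B (0.89). With each line's mean subtracted they were TMEM158 (0.87), ANTXR2 (0.84), STC1 (0.83), CDK17 (0.82) and TSPAN14 (0.80). The libraries of a course share cells and chase times, so these values only describe likeness. Of the other genes described here PLAU was nearest, at 0.84 and rank 14, followed by SERPINE2 (0.75), PLAUR (0.71) and SERPINB2 (0.71). With line means subtracted they were at 0.65 (PLAU), 0.60 (PLAUR), 0.48 (SERPINE2) and 0.29 (SERPINB2).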

How the data were processed

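SLAM-seq libraries (QuantSeq 3′ FWD V2, 75 ng RNA, 100 nt single reads) were processed by the authors with SLAMdunk 0.4.3 on hg38, per the file headers and the labels. The deposited tables hold, per 3′ UTR interval, read counts, CPM and the T>C rate as a fraction. The T content of 71668 of 71668 intervals equalled that of the hg38 sequence used here. The tables repeat a symbol within a name, and intervals whose entries all name 1 gene were summed per gene (1168 intervals with several genes were left out). Counts were tested with edgeR 4.0.16 (quasi-likelihood, TMM, filterByExpr, Benjamini-Hochberg over all genes tested, threshold of 0.05), with DESeq2 1.42.0 as an alternative. Between lines, counts were summed per course over the 6 shared libraries. CPM printed here were rescaled to single-gene 3′ UTR reads with TMM factors. T>C rates are conversions over covered T bases, less the rate of the course's unlabelled library. Half-lives came from single exponentials over at least 4 times with at least 1 CPM and an R2 of at least 0.6, leaving out intervals with over 10% multimapped reads, and were tested on the log2 scale with limma 3.58.1, as was the label at 0 min. Intervals of 95% for fold changes are nominal: they are the estimate ± 1.96 SE, which is too narrow for 2 courses a line. None of the same-line, same-time pairs looked like 1 library deposited again: their counts differed at 25.6 to 377 times the chi-square per degree of freedom of sampling noise. The edgeR, DESeq2 and limma fits and the exponential fit were tried on simulated data, and the other steps were not.

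The 5 genes and the gene lists were chosen with earlier results of these data known. Some genes of the system are not reported here and were taken out of the lists and their counts. Named genes were the 5 members, PLG, up to 4 called genes with the largest log2 change per list and contrast, and the 5 most like PLAT by each measure.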

Additional observations from a re-analysis of the deposited data

How the results depend on the processing

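The difference of PLAT between lines stayed at 3.58 to 3.95 when a course was left out, and moved to 1.71 and 4.23 in the 0 and 1440 min libraries alone, both added after seeing the data. Genes called between lines numbered 2885, and 1992 to 2385 without a course, 1870 and 1020 at these single times, and 5251 with the replicate number as a block. Over the chase 552 genes were called, 281 to 348 without a course and 861 by DESeq2. In the difference of the chase change 2 were called, 3 to 5 without a course, 13 by DESeq2, 16 with no filter on low counts and 19 with the replicate block. For the label effect 0 were called, 2 by DESeq2, 14 with no filter and 85 in course 2 of each line, where PLAT turned from -0.38 to 0.18 and SERPINB2 from -0.08 to 0.24. The label effect of SERPINB2 ran from -0.19 to 0.15 without a course. Signs near 0 also turned without a course in the chase difference of SERPINE2 (-0.14 to 0.19), PLAUR (-0.10 to 0.43) and SERPINB2 (-0.46 to 1.15), in the label of PLAUR (-0.067 to 0.27) and in the half-life of PLAU (-0.40 to 0.026). The cause was not tested. Between lines, same-numbered courses deviated together with an r of 0.47 over 9534 genes, and libraries of a course over the chase with 0.18 and 0.03. With only 2 numbers, and no label that ties them to a shared culture or day, they were not taken as pairs. For the 18 list results named by the rule, 208 of 224 alternative values stayed called, 16 were not and 0 reversed. CPM of mapped reads in place of TMM-scaled CPM moved no chase change of the 5 genes by more than its spread. With 2 courses a line, low conversions limit PLAT and SERPINB2 in the overexpression line most.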

Other observations

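PLAUR reads also fell in a second, more distal interval of 362 nt (hg38, chr19:43646095-43646456), a separate annotated 3′ UTR of the gene. Over the 6 shared libraries it took 4.35% (95% exact binomial interval of 4.18 to 4.52) and 4.76% (4.60 to 4.92) of the reads of both intervals in knockdown courses 1 and 2, and 6.02% (5.79 to 6.26) and 4.54% (4.36 to 4.72) in overexpression courses 1 and 2, so that the lines overlapped. The share was lower at 360 min, when PLAUR was near its peak, than at 0 min in 4 of 4 courses: it went from 5.56% to 3.65% and from 5.81% to 3.41% in the knockdown and from 6.95% to 5.84% and from 5.55% to 4.53% in the overexpression courses. At 1440 min it was at 7.34%, 5.01%, 6.13% and 6.33% in the same order. The intervals cover counting error only, the difference between times was not tested, and this interval was chosen after its values were seen.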
